A study of Mus musculus with 23 samples.

Results

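Cultured mouse cortical astrocytes that had received triiodothyronine (T3), the active thyroid hormone, were compared after 24 h and after 6 h of hormone. The comparison took the 3 libraries titled for 24 h with T3 and the 4 libraries titled for 6 h with T3 and without CHX, which are 7 of the 23 RNA sequencing libraries in the series. Astrocytes are the glial cells that feed neurons, clear glutamate and potassium, and supply the brain with T3. T3 acts mainly through the nuclear receptors encoded by Thra and Thrb, which sit on DNA beside retinoid X receptors and raise or lower their target genes when the hormone binds. Within the astrocyte the deiodinase encoded by Dio2 makes T3 from its prohormone, and the deiodinase encoded by Dio3 inactivates it.

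All groups shared 1 preparation protocol. Neocortex was taken at postnatal day 3 from pups of a hybrid background made up of 129/OLa+129/Sv+ with BALB/c+C57BL/6, and the dissociated cells grew for 7 days in medium whose serum had been deprived of thyroid hormone. They then spent 24 h in 0.1% of such serum before T3 was added at 10 nM. Untreated cells harvested at 6 h (4 libraries) and at 24 h (4 libraries) served for the same comparison without hormone. A further 8 libraries at 6 h received CHX (8 µg/ml, read here as the protein synthesis inhibitor cycloheximide), with or without T3. These 8 entered the filter on low counts, the scaling of library sizes, the estimate of the spread and the fit with a lane term. Their levels are given for some genes and lists. The labels state an astrocyte share above 95%. No label tells whether each replicate was its own culture or litter, and p-values rest on the variation among these libraries, part or all of which may be technical.

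The level of the corepressor gene Hr, a direct receptor target, followed the treatment labels. Hr (ENSMUSG00000022096, GRCm38 chromosome 14, 70552212 to 70573548) stood at 219, 247 and 232 CPM at 24 h and 226, 193, 204 and 197 CPM at 6 h with T3, and at 17.6 ± 1.03 CPM at 24 h and 10.8 ± 1.32 CPM at 6 h (SD, n = 4 each) in untreated cells. Every T3 library lay above every untreated one, and the T3 groups overlapped. The change from 6 h to 24 h with T3 was 0.18 ± 0.07 log2 (SE, adjusted p = 0.0275). That call was lost, at values of 0.14 to 0.19, with RLE size factors, without a filter on low counts, with only the compared libraries fitted, and without 24 h T3 replicate 2 or 3 or 6 h T3 replicate 2, 3 or 4. The value was −0.014 with a lane term.

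The 7 libraries held 15872813 to 22997873 gene counts. The lane numbers in the names of the deposited files coincided with time: all 6 h libraries of both arms ran on lane 5, and the 24 h libraries on lane 6, with the exception of T3 replicate 3, which ran on lane 7. Within the 7 libraries time and lane cannot be told apart. In a fit with a lane term, the step from lane 5 to lane 6 was set by the 6 h CHX group alone. Replicates 1 to 3 of that group ran on lane 5 and replicate 4 on lane 6. Lane 7 held only 24 h T3 replicate 3, so in that fit the 24 h T3 level came from replicates 1 and 2. Counts with a lane term are therefore given for a gene list where one moved by over 1.5 times. Replicate 1 of the 24 h T3 group and replicate 2 of the 6 h T3 group stood apart from their groups. Chi-square per degree of freedom over genes was 28.5 and 35.8 for the pairs with the former against 2.62 for the other 24 h pair, and 5.87 to 14.0 for the pairs with the latter against 2.54 to 3.68. Counts of list members that moved by over 1.5 times without either of them are given with the value reached. The kit marked no strand, so reads of genes that overlap on the other strand cannot be told apart, which concerns Aldh1l1, Bcl3, Bhlhe40, Bmpr1a, Ccnd1, Ckap2l, Cnp, Cxcl10, Cyp51, Dio2, Dnajb9, Dnali1, Dusp1, Ephb1, Fosl1, Gnl3, Id4, Irf1, Kif4, Myb, Nfkb2, Prc1, Rd3, Slc2a1, Sqstm1, Stat3, Trp73, Txnip and Ucp2.

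In T3-treated cells 9253 of 16087 genes tested (57.5%) differed between 24 h and 6 h at a Benjamini-Hochberg adjusted p under 0.05 in edgeR's quasi-likelihood F test, the rule for a call throughout. Of these, 4720 were higher (29.3% of genes tested) and 4533 lower (28.2%) at 24 h. A change of at least 2-fold was reached by 1375 of the higher genes (8.55%) and 494 of the lower ones (3.07%). In 8220 genes (51.1%) the 24 h and 6 h levels did not overlap, 25.4% of genes tested on the higher side and 25.7% on the lower. The genes named for the largest changes with T3 were picked among those 8220, so their lack of overlap was fixed by the choice. The median log2 change of all genes tested was 0.02. Without both outlying T3 libraries 8744 genes were called, and with a lane term 5387 (33.5%). The counts of gene groups are read below against these shares.

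The same time step in untreated cells called 9097 genes (56.5%), 4534 higher (28.2%) and 4563 lower (28.4%), in libraries that the T3 comparison does not use. Of the genes called higher with T3, 3532 were also called higher without it, which is 74.8% of the T3 list and 77.9% of the untreated list. Of those called lower, 3628 were shared, 80.04% and 79.5% of the lists. Called genes moved in opposite directions in 18 and 8 cases. Both comparisons had the same coincidence of time and lane.

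**Figure D1:**
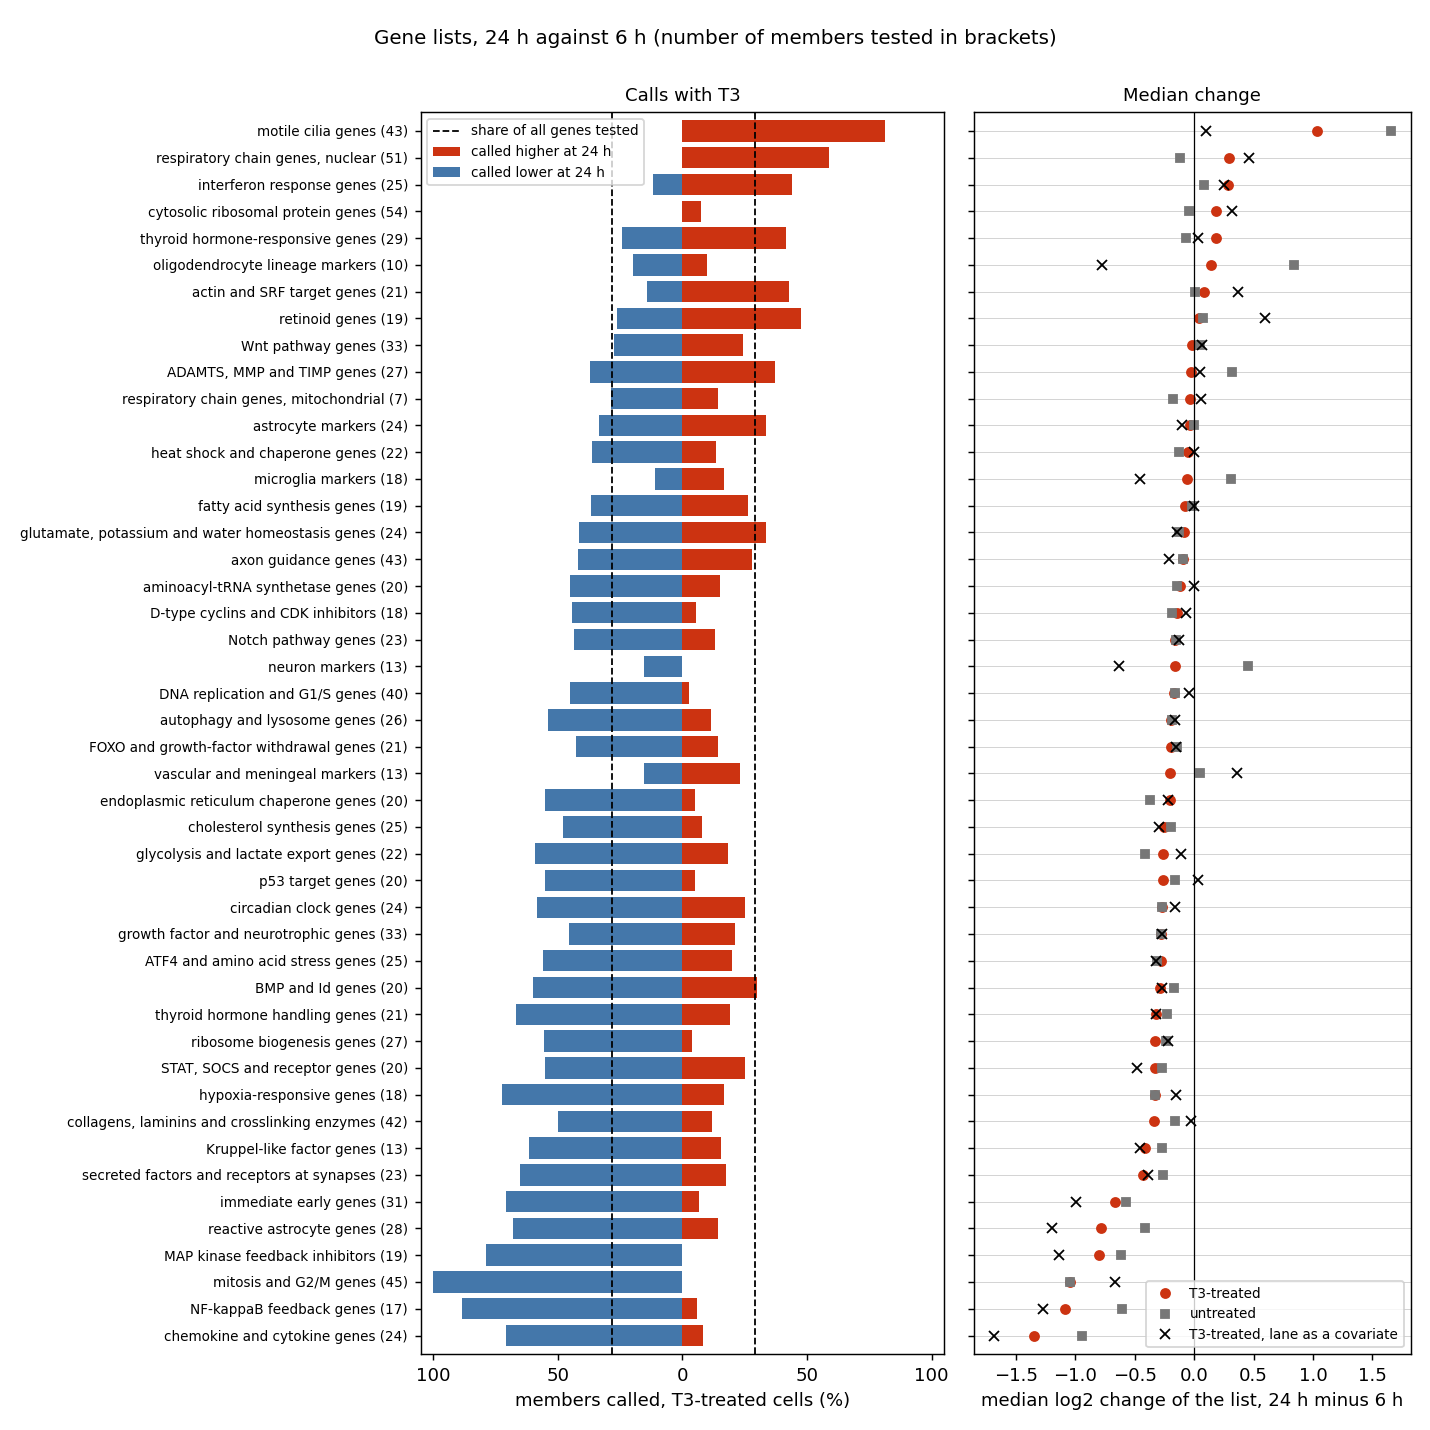
Left: share of the tested members of each of 46 gene lists called higher (red, to the right) or lower (blue, to the left) at 24 h against 6 h in T3-treated cells, in percent, with dashed lines at the shares of all genes tested (29.3% and 28.2%). Right: median log2 change of each list with T3 (circles), without T3 (squares) and with T3 after a lane term (crosses). Mitosis, NF-kappaB and chemokine genes lie at the lower end, and motile cilia genes at the upper end, where the cross lies near 0.

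Inflammatory and injury-associated genes were among those that fell most. Chemokines draw immune cells to a tissue, and astrocytes make them when NF-kappaB, a transcription factor held back by inhibitors such as Nfkbia, is active. Of 24 chemokine and cytokine genes tested, 17 were lower and 2 higher at 24 h, with a median log2 change of −1.35, and 16 were lower and 3 higher in untreated cells (median −0.94). With a lane term 16 were lower and 1 higher. Their summed level was 577 to 593 CPM at 24 h and 999.9 to 1058 CPM at 6 h. A CPM value is a count scaled to a library of 1000000 counts, after adjustment of library sizes.

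Cxcl10, a chemokine that attracts T cells (ENSMUSG00000034855, GRCm38 chromosome 5, 92346638 to 92348889), stood at 18.9, 15.1 and 15.3 CPM at 24 h and 171, 189, 156 and 175 CPM at 6 h. All 24 h libraries lay far below all 6 h libraries, with little spread within either group. The change was −3.40 ± 0.11 log2 (SE, adjusted p = 7.1e-17), a 10.6-fold fall, and in untreated cells it was −3.30 ± 0.10. Ccl2, which attracts monocytes (ENSMUSG00000035385, GRCm38 chromosome 11, 82035571 to 82037453), stood at 1.2, 1.33 and 1.22 CPM at 24 h and 19.1, 18.6, 15.3 and 21.4 CPM at 6 h, again without overlap, and changed by −3.89 ± 0.19 log2 (SE, adjusted p = 9e-14). The neutrophil chemokine genes Cxcl1 and Cxcl2 changed by −3.98 ± 0.23 and −3.68 ± 0.29. Cxcl1 had a mean of 0.625 ± 0.0817 CPM (SD, n = 3) at 24 h against 9.97 ± 1.34 CPM (SD, n = 4) at 6 h, and for Cxcl2 these means were 0.328 ± 0.209 CPM (SD, n = 3) against 4.2 ± 0.895 CPM (SD, n = 4). Tnf, the gene of the inflammatory cytokine tumour necrosis factor, was low throughout, at 2.89 to 4.93 CPM at 6 h and 0.337 to 0.718 CPM at 24 h. Ptgs2, which encodes the inducible cyclooxygenase of prostaglandin synthesis, had the largest fall of the genes chosen by rule. It stood at 0.189, 0.77 and 0.589 CPM at 24 h and 11.5, 9.81, 7.97 and 9.97 CPM at 6 h, a change of −4.17 ± 0.25 log2 (SE, adjusted p = 1.6e-12), against −2.98 ± 0.20 in untreated cells.

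Of 17 genes of NF-kappaB feedback, 15 were lower and 1 was higher at 24 h (median −1.09), and 14 were lower and 1 higher in untreated cells (median −0.61). The subunit genes Nfkb2 and Relb changed by −1.10 ± 0.08 and −1.34 ± 0.08, and Nfkbiz, an atypical inhibitor protein gene, by −1.59 ± 0.13. Traf1, an adaptor of tumour necrosis factor receptors, was the member that went the other way. It stood at 80.6, 73 and 71.9 CPM at 24 h and 21.9, 26.3, 24.2 and 23.7 CPM at 6 h, each 24 h library above each 6 h library, and changed by 1.64 ± 0.08 log2 (SE, adjusted p = 4.5e-14), with 1.50 ± 0.08 in untreated cells. Bcl3, a nuclear partner of NF-kappaB subunits, changed by −3.10 ± 0.27.

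Promoters of Cxcl10, Cxcl1 and Cxcl2 are shown because these members fell together and their first 250 bases upstream hold a kappaB-like motif, the kind of element NF-kappaB binds. The motif searched was GGG followed by any 3 bases and TTCC, on both strands (GGAA, any 3 bases and CCC on the other one), and it was chosen once results of these data were known. It was found in 5.01% of 11448 tested genes with a promoter in the table, in 6 of 13 NF-kappaB feedback genes (46.2%) and in 6 of 17 chemokine and cytokine genes (35.3%). The 3 were chosen because they hold it. Sequences are RefSeq's for GRCm38.p6, 5′ to 3′ on the gene's strand and ending at the base before the start, for Cxcl10 chr5:92348890-92349139 (minus strand), Cxcl1 chr5:90890995-90891244 (plus) and Cxcl2 chr5:90903649-90903898 (plus). Capitals mark the motif on either strand, and overlapping matches run together.
Cxcl10: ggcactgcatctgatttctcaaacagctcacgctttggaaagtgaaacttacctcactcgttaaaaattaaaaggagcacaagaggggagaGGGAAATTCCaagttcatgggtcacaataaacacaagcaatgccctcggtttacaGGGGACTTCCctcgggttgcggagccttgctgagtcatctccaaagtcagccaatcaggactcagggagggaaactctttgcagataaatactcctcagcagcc
Cxcl1: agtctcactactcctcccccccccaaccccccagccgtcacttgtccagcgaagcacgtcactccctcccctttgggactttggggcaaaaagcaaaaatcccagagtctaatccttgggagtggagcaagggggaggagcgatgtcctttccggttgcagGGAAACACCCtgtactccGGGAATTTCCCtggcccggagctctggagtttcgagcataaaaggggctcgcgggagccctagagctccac
Cxcl2: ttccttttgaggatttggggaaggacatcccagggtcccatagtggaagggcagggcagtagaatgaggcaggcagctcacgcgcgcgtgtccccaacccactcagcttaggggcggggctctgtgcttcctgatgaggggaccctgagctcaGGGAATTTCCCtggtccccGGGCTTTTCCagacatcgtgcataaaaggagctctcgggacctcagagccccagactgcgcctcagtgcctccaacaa
A match is a description of these letters and was not tested as a binding site.

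Genes raised in reactive astrocytes, the state that follows injury or inflammation, were lower at 24 h in 19 of 28 cases and higher in 4, with a median of −0.78, against 15 lower and 2 higher in untreated cells (median −0.41) and 19 lower and none higher with a lane term. Several of them are also chemokine or prostaglandin genes, so the lists overlap. Cd44, the hyaluronan receptor that rises in reactive astrocytes (ENSMUSG00000005087, GRCm38 chromosome 2, 102811141 to 102901665), stood at 67.9, 78.8 and 83.1 CPM at 24 h and 334, 287, 328 and 354 CPM at 6 h and changed by −2.08 ± 0.10 log2 (SE, adjusted p = 9e-14), with no overlap. Emp1, a membrane protein gene, changed by −1.50 ± 0.07, and Osmr, the oncostatin M receptor gene, by −1.22 ± 0.16 (−2.11 with a lane term). Ptx3, a secreted pentraxin gene, stood at 27, 20.4 and 20.9 CPM at 24 h and 131, 136, 125 and 152 CPM at 6 h. It fell by more with T3 (−2.59 ± 0.11) than without (−1.88 ± 0.09), and the difference was called (−0.71 ± 0.14, adjusted p = 0.00985).

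Other strong falls involved a ubiquitin ligase, receptors, a secreted factor and a kinase. Trim47, of the tripartite motif family of ubiquitin ligases (ENSMUSG00000020773, GRCm38 chromosome 11, 116105752 to 116127210), stood at 12, 9.54 and 8.88 CPM at 24 h and 94.8, 93.1, 91.1 and 91.4 CPM at 6 h, a 9.2-fold fall (−3.20 ± 0.12 log2 (SE, adjusted p = 4.1e-16)). The untreated change was −2.71 ± 0.10. Met, the receptor of hepatocyte growth factor, stood at 27.3, 36.6 and 35.5 CPM at 24 h and 216, 176, 213 and 228 CPM at 6 h. It changed by −2.65 ± 0.10 with T3 and −2.01 ± 0.09 without, and the difference of −0.63 ± 0.13 was called (adjusted p = 0.0172), though not under 4 of 24 alternatives, 3 of which left out 1 library (24 h control replicate 2, 6 h T3 replicate 4 or 6 h control replicate 2). The neuropeptide precursor gene Vgf changed by −2.94 ± 0.24, and Tnfrsf12a, the receptor gene of the cytokine TWEAK, by −2.49 ± 0.21. Mylk2, a myosin light chain kinase gene known from skeletal muscle, stood at 0.819, 0.718 and 0.884 CPM at 24 h and 10.4, 10.5, 9.51 and 10.6 CPM at 6 h and changed by −3.65 ± 0.26 log2 (SE, adjusted p = 2.8e-11). The levels of Trim47, Met and Mylk2 did not overlap between 24 h and 6 h, and 25.7% of all genes tested were lower without overlap. For genes named for the largest changes the lack of overlap was a condition of the choice.

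**Figure D2:**
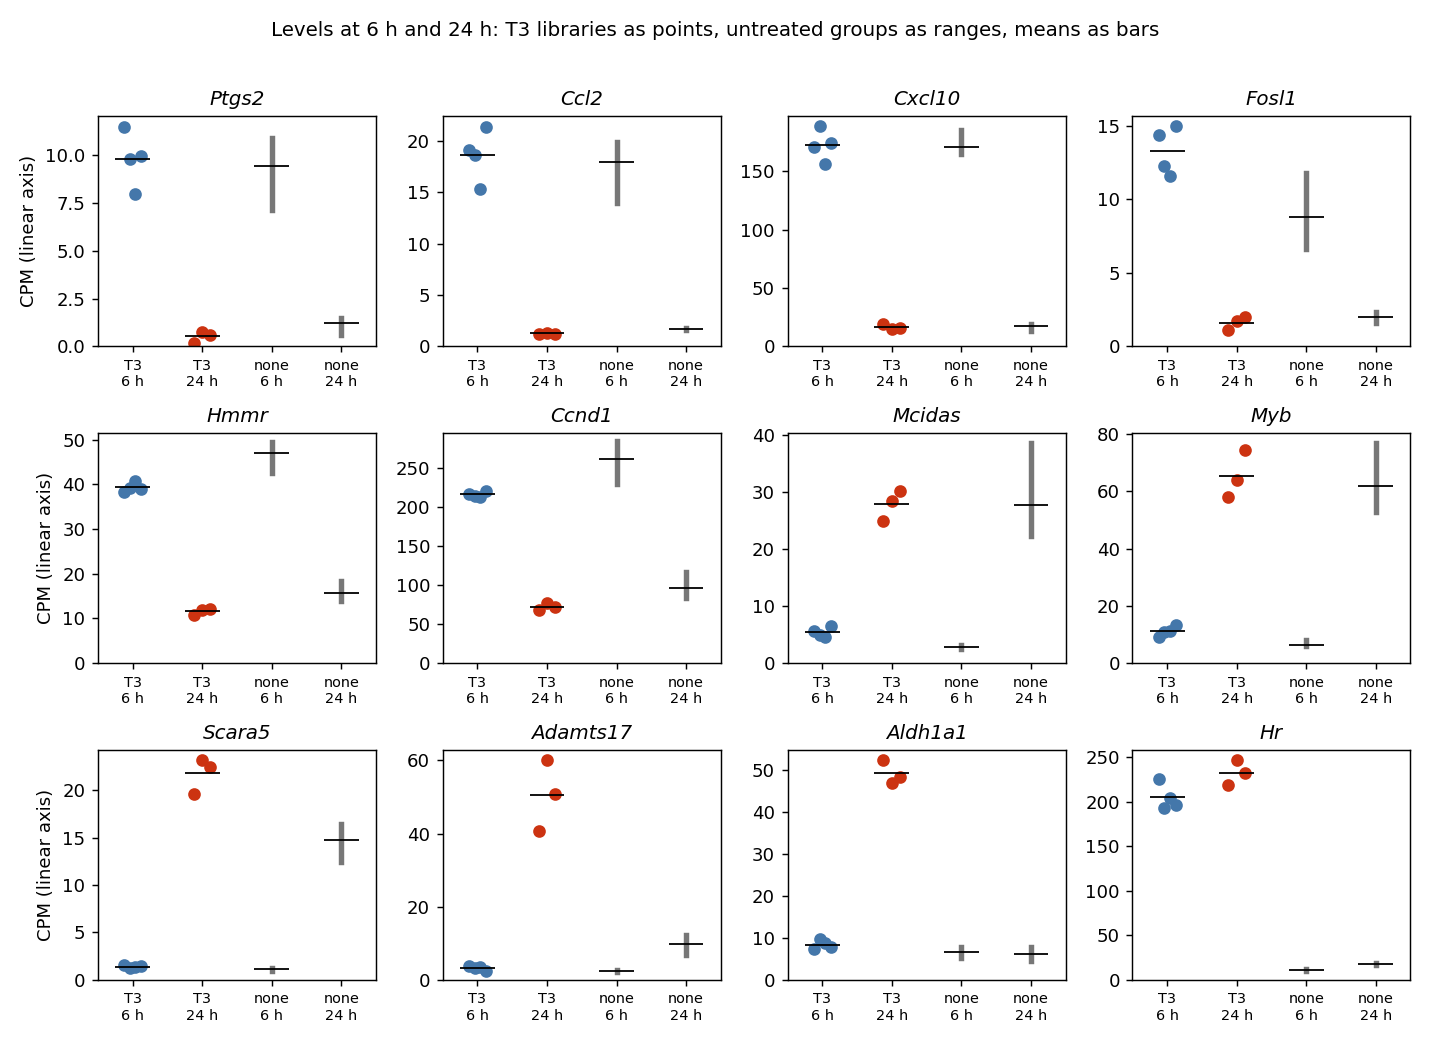
Levels of 12 genes in CPM on linear axes from 0: the 4 T3 libraries at 6 h (blue points) and the 3 at 24 h (red points), the range over 4 untreated libraries at each time (grey lines) and group means (black bars). Inflammatory, mitotic and cyclin genes fall with time in both arms, Mcidas, Myb and Scara5 rise in both, Aldh1a1 rises with T3 alone, and Hr differs between arms more than between times.

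Immediate early genes, which growth factors and stress switch on within minutes, were lower at 24 h in 22 of 31 cases and higher in 2 (median −0.67), with 23 lower and 2 higher in untreated cells. Fosl1, a Fos family subunit of the AP-1 factor (ENSMUSG00000024912, GRCm38 chromosome 19, 5447547 to 5455946), stood at 1.13, 1.69 and 2.02 CPM at 24 h and 14.4, 12.2, 11.6 and 15 CPM at 6 h and changed by −3.00 ± 0.22 log2 (SE, adjusted p = 6.1e-11). The related gene Fosl2 changed by −1.70 ± 0.10 and the stress-induced gene Ier3 by −1.83 ± 0.09. None of the 3 overlapped between times, which was a condition of the choice for Fosl1, and 25.7% of all genes tested were lower without overlap. Inhibitors that the MAP kinase pathway induces against itself, and its ETS factors, were lower in 15 of 19 cases and higher in none (median −0.80), with 16 of 19 lower in untreated cells. The phosphatase gene Dusp1, which counts in both lists, stood at 20.2, 21 and 19.5 CPM at 24 h and 48.7, 51, 49.5 and 49.6 CPM at 6 h and changed by −1.30 ± 0.11. The ETS factor genes Etv1, Etv4 and Etv5 changed by −1.63 ± 0.12, −1.30 ± 0.08 and −1.01 ± 0.09. Hbegf, a ligand of the epidermal growth factor receptor that feeds this pathway, stood at 99.9, 94.3 and 82.5 CPM at 24 h and 326, 324, 323 and 343 CPM at 6 h and changed by −1.84 ± 0.13.

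Genes of mitosis fell as a block. These encode the cyclins, kinases and motor proteins that separate chromosomes, and they are expressed mainly in dividing cells. All 45 members tested were lower at 24 h, with changes from −1.76 to −0.52 and a median of −1.05, and all 45 were lower in untreated cells as well (median −1.04). Their summed level was 1351 to 1402 CPM at 24 h and 2772 to 2811 CPM at 6 h. The fit with a lane term called 33 lower and none higher, with a median of −0.66. The mean log2 CPM of the list was 4.51 to 4.55 in the 24 h T3 libraries and 5.58 to 5.62 in the 6 h T3 libraries. In the 6 h CHX group it was 5.46 to 5.56 on lane 5 and 5.10 in replicate 4 on lane 6, and with CHX and T3 at 6 h, also on lane 6, it was 5.59 to 5.69. In bulk RNA fewer cells of a kind and less RNA per cell cannot be told apart.

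Hmmr, which encodes a spindle protein (ENSMUSG00000020330, GRCm38 chromosome 11, 40701395 to 40733422), had the largest fall of the list. It stood at 10.8, 11.9 and 12 CPM at 24 h and 38.4, 39.3, 40.8 and 38.9 CPM at 6 h, an almost even step between groups without overlap, and changed by −1.76 ± 0.10 log2 (SE, adjusted p = 1.2e-12). Ect2, the exchange factor that starts cytokinesis (ENSMUSG00000027699, GRCm38 chromosome 3, 27097222 to 27153878), stood at 21.5, 31 and 32 CPM at 24 h and 91.3, 88.4, 93.3 and 96.1 CPM at 6 h, with 24 h replicate 1 the lowest, and changed by −1.70 ± 0.11 log2 (SE, adjusted p = 9.7e-12). The midzone protein gene Prc1 and the chromokinesin gene Kif4 changed by −1.29 ± 0.08 and −1.21 ± 0.08. Means in untreated cells were 15.7 ± 2.01 CPM at 24 h and 46.9 ± 3.11 CPM at 6 h (SD, n = 4 each) for Hmmr. None of the 45 members was called in the test of the difference between arms.

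Promoters of Ect2, Kif11 and Ckap2l are shown because these mitotic genes fell together and carry both elements known from cell cycle promoters, CCAAT, bound by NF-Y, and TTTGAA, the core of the cell cycle homology region. Both were searched on both strands, on which they read ATTGG and TTCAAA. Over 11448 promoters CCAAT was found in 36.1%, TTTGAA in 10.1% and both in 3.90%. Among the 38 mitotic genes with a promoter, 29 held CCAAT (76.3%), 12 held TTTGAA (31.6%) and 11 held both (28.9%). The share with CCAAT was larger in endoplasmic reticulum chaperone genes (16 of 18, 88.9%) and cholesterol synthesis genes (15 of 17, 88.2%). It was smaller in the other lists that had promoters. Kif11 encodes the motor that pushes spindle poles apart and changed by −1.18 ± 0.09, and Ckap2l encodes a spindle protein and changed by −0.92 ± 0.08. Windows are RefSeq's for GRCm38.p6, at chr3:27153879-27154128 (minus strand) for Ect2, chr19:37376132-37376381 (plus) for Kif11 and chr2:129297213-129297462 (minus) for Ckap2l, written as above with the 2 motifs in capitals.
Ect2: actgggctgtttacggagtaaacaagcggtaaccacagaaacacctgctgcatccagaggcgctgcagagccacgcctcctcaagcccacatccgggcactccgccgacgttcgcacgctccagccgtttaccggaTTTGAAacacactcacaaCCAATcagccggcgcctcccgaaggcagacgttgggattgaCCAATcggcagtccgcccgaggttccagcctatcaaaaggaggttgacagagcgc
Kif11: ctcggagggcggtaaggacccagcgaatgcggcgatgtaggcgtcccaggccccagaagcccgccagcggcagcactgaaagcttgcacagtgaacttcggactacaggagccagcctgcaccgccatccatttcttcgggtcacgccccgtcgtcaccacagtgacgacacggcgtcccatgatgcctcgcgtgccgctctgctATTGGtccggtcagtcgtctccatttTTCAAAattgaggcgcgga
Ckap2l: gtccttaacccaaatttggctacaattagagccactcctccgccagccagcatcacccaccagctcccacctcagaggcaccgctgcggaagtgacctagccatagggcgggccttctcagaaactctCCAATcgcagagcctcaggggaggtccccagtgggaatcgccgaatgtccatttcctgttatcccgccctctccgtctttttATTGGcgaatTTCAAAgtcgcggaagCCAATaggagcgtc
The 3 were chosen because they hold both motifs, so their letters support nothing beyond the counts given.

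Genes of DNA replication moved less. Of 40 tested, 18 were lower and 1 was higher at 24 h (median −0.17), with 19 lower and 3 higher in untreated cells, and 4 lower and 2 higher with a lane term. Mcm4, a subunit of the replicative helicase, stood at 49.7, 53.4 and 53.3 CPM at 24 h and 77.2, 68.2, 73.8 and 76 CPM at 6 h and changed by −0.50 ± 0.06. Of 18 cyclin D genes and inhibitors of cyclin-dependent kinases, 8 were lower and 1 was higher (6 and 2 with a lane term). Ccnd1, the cyclin that couples growth factor signals to entry into S phase (ENSMUSG00000070348, GRCm38 chromosome 7, 144929931 to 144939925), stood at 67.8, 76.9 and 72 CPM at 24 h and 217, 215, 213 and 221 CPM at 6 h. The 6 h values were nearly equal and far above those at 24 h, and the change was −1.58 ± 0.09 log2 (SE, adjusted p = 1.5e-12). Cdkn1c, the member that rose, encodes a kinase inhibitor that holds cells out of the cycle. It stood at 84.6, 65.9 and 55.2 CPM at 24 h and 18.3, 25.1, 24.1 and 19.5 CPM at 6 h, highest in 24 h replicate 1, and changed by 1.65 ± 0.12 log2 (SE, adjusted p = 3.1e-11), with 1.11 ± 0.11 in untreated cells.

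Genes of motile cilia, the beating cilia that ependymal cells rather than astrocytes carry, had the largest share called higher of the 46 lists. Of 43 tested, 35 were higher and none lower at 24 h (median 1.03), and 41 were higher and none lower in untreated cells (median 1.65). Their summed level was 1838 to 1950.2 CPM at 24 h and 985 to 1040.3 CPM at 6 h. Mcidas, which encodes multicilin, the switch for making many cilia (ENSMUSG00000074651, GRCm38 chromosome 13, 112993845 to 113000394), stood at 24.9, 28.5 and 30.1 CPM at 24 h and 5.54, 4.93, 4.55 and 6.42 CPM at 6 h, with no overlap, and changed by 2.38 ± 0.24 log2 (SE, adjusted p = 9.1e-09). Untreated levels were 27.8 ± 7.48 CPM at 24 h and 2.78 ± 0.29 CPM at 6 h (SD, n = 4 each). The transcription factor genes Myb and Trp73, which act in the same programme, stood at 58, 63.9 and 74.4 CPM at 24 h and 9.23, 10.7, 11.3 and 13.1 CPM at 6 h for Myb and changed by 2.56 ± 0.21 and 2.82 ± 0.24. Foxj1, the factor gene of motile cilia, which was added to the genes named after its value was seen, changed by 0.91 ± 0.10 (adjusted p = 6.9e-08). Of the axonemal genes, the dynein gene Dnah7b changed by 1.59 ± 0.15, the dynein chain gene Dnali1 by 1.80 ± 0.19 and the central pair gene Spag16 by 2.59 ± 0.26, the last from 0.542 to 0.709 CPM to 2.77 to 4.29 CPM.

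With a lane term 7 cilia genes were called higher and 2 lower, with a median of 0.10. Single genes then changed by 1.09 (Mcidas), 1.18 (Myb), 1.71 (Trp73) and 0.88 (Dnali1), all still called. The mean log2 CPM of the list was 3.63, 3.83 and 3.98 in the 24 h T3 libraries and 2.80 to 3.04 in the 6 h T3 libraries. In the 6 h CHX group it was 2.69 to 2.87 on lane 5 and 3.59 in replicate 4 on lane 6, the library that sets the lane term. In the 4 libraries with CHX and T3 at 6 h, which also ran on lane 6, it was 2.51 to 2.78, near the 6 h level of lane 5. The group with CHX and T3 had no library on lane 5, so lane and treatment cannot be told apart in its level. The part of lane in the rise was not tested.

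**Figure D3:**
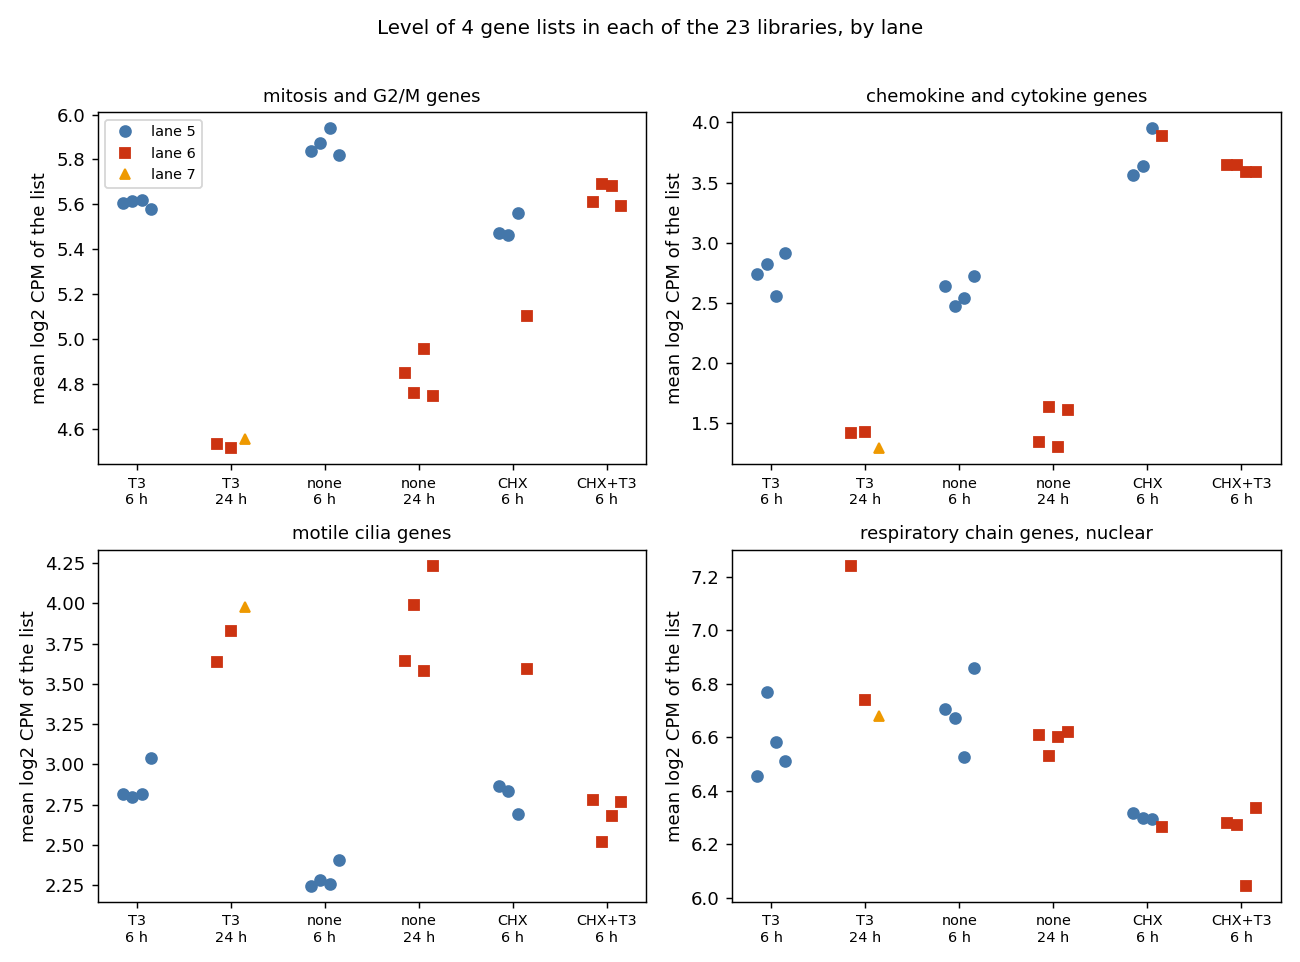
Mean log2 CPM of 4 gene lists in each of the 23 libraries, by group, with lane 5 as blue circles, lane 6 as red squares and lane 7 as orange triangles. Mitosis and chemokine genes are low in the 24 h groups, cilia genes are high there and in 1 of the 4 libraries with CHX alone, and nuclear respiratory chain genes are highest in 1 of the 3 libraries with T3 at 24 h.

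Other large rises lay outside these programmes, and the genes named here were also called with a lane term. Scara5, a scavenger receptor gene that takes up ferritin (ENSMUSG00000022032, GRCm38 chromosome 14, 65666403 to 65764826), stood at 19.7, 23.2 and 22.5 CPM at 24 h and 1.54, 1.19, 1.36 and 1.41 CPM at 6 h. The 24 h libraries lay far above the 6 h ones, and the change was 3.98 ± 0.15 log2 (SE, adjusted p = 8.6e-16), with 3.71 ± 0.16 in untreated cells and 4.19 with a lane term. Fam107a, an actin-associated gene induced by glucocorticoids, stood at 36.9, 40.4 and 40.5 CPM at 24 h and 7.64, 6.77, 5.73 and 5.9 CPM at 6 h and changed by 2.59 ± 0.12. Ucma, a matrix protein gene known from cartilage, changed by 2.78 ± 0.16, and Rd3, a gene known from photoreceptors, by 3.19 ± 0.18. Txnip, which restrains glucose uptake and binds thioredoxin, was far more abundant. It stood at 406, 411 and 423 CPM at 24 h and 118, 126, 128 and 110.5 CPM at 6 h and changed by 1.78 ± 0.06 log2 (SE, adjusted p = 3.7e-16). Changes of these genes in untreated cells were 2.04 ± 0.12 for Fam107a, 2.39 ± 0.17 for Ucma, 3.21 ± 0.19 for Rd3 and 1.59 ± 0.06 for Txnip, and no difference between arms was called.

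The test of the difference, the time change with T3 minus that without T3, called 136 genes (0.845% of genes tested), 87 with a positive value (0.541%) and 49 with a negative one (0.305%). Of these, 116 were also called with T3. Among the 116, 46 were higher with time in both arms, 20 were lower in both, 33 had no call in untreated cells and 17 went in opposite directions. The count was 141 without both outlying T3 libraries, and it moved between 67 and 530 over the alternatives, so the genes named next are those that kept their call under all 24, unless stated.

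The aldehyde dehydrogenase genes Aldh1a7 and Aldh1a1 had the largest differences of the 136. Retinoic acid, made from retinaldehyde by enzymes such as Aldh1a1, acts through receptors that also pair with retinoid X receptors. Aldh1a1 (ENSMUSG00000053279, GRCm38 chromosome 19, 20492715 to 20643465) stood at 52.4, 46.9 and 48.3 CPM at 24 h and 7.23, 9.81, 8.74 and 7.72 CPM at 6 h and changed by 2.55 ± 0.15 log2 (SE, adjusted p = 6.8e-13). In untreated cells it stood at 6.11 ± 1.58 CPM at 24 h and 6.71 ± 1.15 CPM at 6 h (SD, n = 4 each), where the change was not called (−0.15 ± 0.16, adjusted p = 0.461). So the 24 h T3 group stood above the 3 others, and the difference was 2.70 ± 0.22 (adjusted p = 4.3e-08). Its neighbour Aldh1a7 is a close relative, so reads that align to both would have been left uncounted. It stood at 22.9, 20.8 and 21.2 CPM at 24 h and 3.18, 3.41, 3.37 and 4.07 CPM at 6 h, with a difference of 2.95 ± 0.24. Crabp1, which encodes a cytosolic binding protein of retinoic acid, stood at 12.2, 9.54 and 9.05 CPM at 24 h and 2.72, 4.72, 4.61 and 3.44 CPM at 6 h. It rose with T3 (1.40 ± 0.19) and fell without (−0.50 ± 0.20). Rpe65, the retinoid isomerase gene, changed by 2.21 ± 0.19 with T3 and by 1.01 ± 0.27 without, and its difference was not called (adjusted p = 0.0928). Of 19 retinoid genes 9 were higher and 5 lower with T3 (7 and 3 with a lane term), and 7 higher and 6 lower without.

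Adamts17, a secreted metalloprotease gene (ENSMUSG00000058145, GRCm38 chromosome 7, 66839735 to 67153171), rose in both arms and by more with T3. It stood at 40.8, 60.0 and 50.9 CPM at 24 h and 3.85, 3.09, 3.37 and 2.4 CPM at 6 h, and at 9.8 ± 2.6 CPM at 24 h and 2.3 ± 0.197 CPM at 6 h (SD, n = 4 each) in untreated cells. The change was 3.99 ± 0.18 log2 (SE, adjusted p = 1.9e-14) with T3 and 2.09 ± 0.21 without, and the difference 1.90 ± 0.29 (adjusted p = 0.00178). Pla2g5, a secreted phospholipase gene, stood at 19.7, 17.6 and 19.1 CPM at 24 h and 4.67, 5.96, 5.61 and 4.59 CPM at 6 h, a change of 1.85 ± 0.11 against 0.32 ± 0.11. Wnt4, a Wnt ligand gene, stood at 13.2, 8.88 and 10.6 CPM at 24 h and 3.23, 2.82, 4.13 and 3.86 CPM at 6 h and changed by 1.63 ± 0.17, against 0.21 ± 0.17 without T3, which was not called. Cox7a1, a muscle and heart isoform of a cytochrome c oxidase subunit, stood at 25, 16.7 and 14.7 CPM at 24 h and 2.05, 3.85, 2.89 and 3.13 CPM at 6 h. Its 24 h value was highest in replicate 1, the outlying library, and its difference was 1.53 ± 0.29 and kept its call without that library.

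Genes with a negative difference were fewer. March4, a membrane-bound ubiquitin ligase gene (ENSMUSG00000039372, GRCm38 chromosome 1, 72427112 to 72536930), stood at 5.86, 7.03 and 7.33 CPM at 24 h and 22.9, 19.8, 23.1 and 23.6 CPM at 6 h. With T3 it changed by −1.72 ± 0.13 log2 (SE, adjusted p = 1.2e-10), against −0.38 ± 0.12 in untreated cells, and the difference was −1.34 ± 0.18 (adjusted p = 0.000227). Nptx1, a neuronal pentraxin gene whose product gathers glutamate receptors, stood at 1.76, 1.64 and 1.31 CPM at 24 h and 4.61, 3.74, 4.13 and 4.38 CPM at 6 h, a change of −1.44 ± 0.19, while untreated cells had no call (−0.11 ± 0.16). Kitl, the ligand of the receptor Kit, changed by −1.38 ± 0.11 against −0.58 ± 0.10, and Galnt15, of the mucin-type glycosylation enzymes, by −2.20 ± 0.16 against −1.17 ± 0.14. Tmem132c, a membrane protein gene, rose by less with T3 (1.03 ± 0.13) than without (1.93 ± 0.13). The difference of Hr was also negative (−0.53 ± 0.11, adjusted p = 0.0152), since its level rose with time in untreated cells, but this call was lost when only the libraries of both arms were fitted and without 6 h control replicate 1 or 2.

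**Figure D4:**
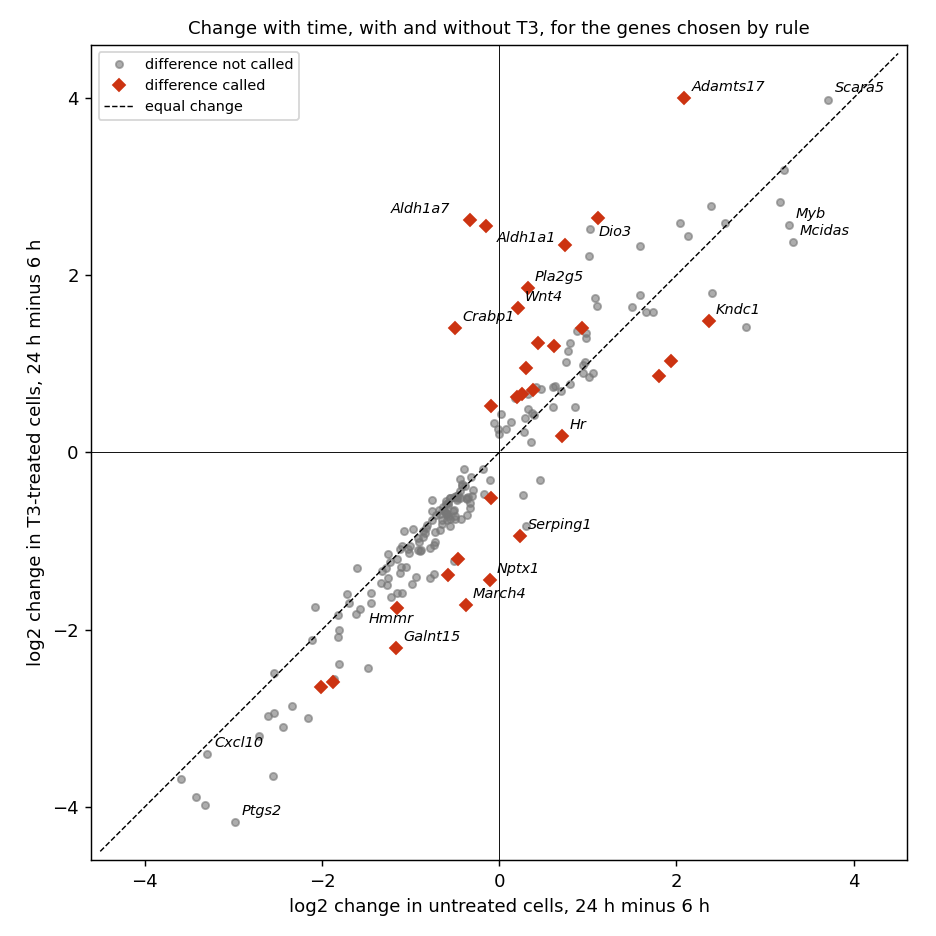
Log2 change from 6 h to 24 h with T3 (vertical axis) against that in untreated cells (horizontal axis) for the genes chosen by rule, with red diamonds where the test of the difference was called and grey circles where it was not. Most points lie near the dashed line of equal change, and Aldh1a1, Aldh1a7, Adamts17, Crabp1, Pla2g5 and Wnt4 lie above it.

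Of 29 genes listed as responsive to thyroid hormone, 12 were higher and 7 lower at 24 h (median 0.18), against 8 and 6 in untreated cells. The list was chosen with earlier results of these data known, and it holds Aldh1a1 and Bcl3, described above. Ucp2, a mitochondrial carrier gene, stood at 58, 52.2 and 44.7 CPM at 24 h and 20.9, 19, 22.3 and 18.8 CPM at 6 h and changed by 1.35 ± 0.11, while Tubb2b, a beta tubulin gene, stood at 259, 215 and 201 CPM at 24 h and 452, 522, 488 and 473 CPM at 6 h and changed by −1.11 ± 0.08. Neither difference between arms was called. Klf9, a zinc finger factor gene and direct receptor target, stood at 45.9, 61.8 and 65.1 CPM at 24 h and 85.1, 72.6, 79.3 and 81.4 CPM at 6 h. It was lower at 24 h (−0.46 ± 0.09 log2 (SE, adjusted p = 6.7e-05)), lowest in replicate 1, and still above the untreated levels of 20.4 ± 0.375 CPM at 24 h and 23 ± 1.92 CPM at 6 h (SD, n = 4 each).

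Of 21 genes that move, convert or sense thyroid hormone, 4 were higher and 14 lower at 24 h (median −0.32), with 2 higher and 10 lower in untreated cells and 2 higher and 4 lower with a lane term. Dio3, the inactivating deiodinase gene (ENSMUSG00000075707, GRCm38 chromosome 12, 110279068 to 110281097), stood at 10.3, 10.2 and 10.6 CPM at 24 h and 2.05, 1.79, 1.89 and 1.46 CPM at 6 h, nearly constant within each group, and changed by 2.52 ± 0.23 log2 (SE, adjusted p = 2.2e-09). Untreated levels were only 0.293 ± 0.137 CPM at 24 h and 0.143 ± 0.0324 CPM at 6 h (SD, n = 4 each), and the difference between arms was not called (1.50 ± 0.75, adjusted p = 0.34). The call was lost with a lane term (value 0.012), but in the 6 h CHX group, which sets that term, Dio3 stood at only 0.163 ± 0.193 CPM (SD, n = 4), with 1 library at 0, so this value rests on few counts. Dio2, the activating deiodinase gene, stood at 8.95, 8.98 and 8.04 CPM at 24 h and 14.4, 12.6, 13.1 and 14.6 CPM at 6 h and changed by −0.66 ± 0.10 log2 (SE, adjusted p = 4.4e-06), and Thrb, the beta receptor gene, by −0.51 ± 0.13 log2 (SE, adjusted p = 0.0013). Both calls were lost with a lane term (−0.38 and −0.62). The transporter genes Slco1c1 and Slco1a4, whose products carry thyroid hormones across membranes, went in opposite directions, −0.88 ± 0.08 and 1.20 ± 0.08 (−0.54 and 0.95 with a lane term). Slco1a4 rose by more with T3 than without (0.58 ± 0.12), a call lost when only the libraries of both arms were fitted.

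Markers of astrocytes changed in both directions. Of 24, 8 were higher and 8 lower (median −0.04, 3 and 8 with a lane term), and their summed level was 17597 to 18531 CPM at 24 h and 19833 to 20029 CPM at 6 h. Sums in these libraries reached at most 216 CPM for 18 microglia markers and 625 CPM for 13 neuron markers. They reached 971 CPM for 10 oligodendrocyte lineage markers and 3998 CPM for 13 vascular and meningeal markers. Aqp4, the water channel gene of astrocyte endfeet (ENSMUSG00000024411, GRCm38 chromosome 18, 15389496 to 15410982), stood at 483, 606 and 646 CPM at 24 h and 1022, 877, 954 and 1037 CPM at 6 h and changed by −0.75 ± 0.09 log2 (SE, adjusted p = 6.7e-08), lowest in 24 h replicate 1. Slc1a3, a glutamate transporter gene, changed by −0.42 ± 0.05. Acsbg1, an acyl-CoA synthetase gene, stood at 556, 530.4 and 502 CPM at 24 h and 333, 358, 343 and 337 CPM at 6 h and rose by more with T3 (0.63 ± 0.06) than without (0.21 ± 0.05), a called difference of 0.42 ± 0.08. For Gfap and Aldh1l1, added to the genes named after their values were seen, the values were −0.23 ± 0.11 (adjusted p = 0.0802) and 0.18 ± 0.07 (adjusted p = 0.0358). Among genes of glutamate, potassium and water balance, 8 of 24 were higher and 10 lower (4 and 8 with a lane term). Amino acid carriers went both ways. Slc38a2, which starvation for amino acids induces, stood at 213, 262 and 251 CPM at 24 h and 1124, 956, 1038 and 1080.3 CPM at 6 h and changed by −2.12 ± 0.08 log2 (SE, adjusted p = 3.7e-16). Slc38a3, the glutamine exporter gene of astrocytes, stood at 814, 798 and 761 CPM at 24 h and 401, 396, 395 and 369 CPM at 6 h and changed by 1.02 ± 0.05 log2 (SE, adjusted p = 6.4e-14).

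Markers of other cells had few calls with T3 and more in untreated cells. Of 18 microglia markers 3 were higher and 2 lower, with a summed level of 191 to 216 CPM at 24 h and 195 to 212 CPM at 6 h. Of 10 tested oligodendrocyte lineage markers (of 14 listed) 1 was higher and 2 were lower, at 867 to 947 CPM and 882 to 971 CPM. Of 13 tested neuron markers (of 16) none was higher and 2 were lower, at 479 to 607 CPM and 549 to 625 CPM. Of 13 tested vascular and meningeal markers (of 18) 3 were higher and 2 lower, at 2943 to 3998 CPM and 2697 to 3208 CPM, most of it the smooth muscle actin gene Acta2, which stood at 2736, 2267 and 1996 CPM at 24 h and 1508, 1799, 1642 and 1550.5 CPM at 6 h. With a lane term 1 marker of microglia, 1 of the oligodendrocyte lineage and 2 of vessels and meninges were higher, and 0, 1 and 0 lower, while 7 neuron markers were lower and none higher. That term rests on 6 h CHX replicate 4, where the mean log2 CPM of neuron markers was 3.52, against 2.84 to 2.96 in replicates 1 to 3. With CHX and T3 at 6 h, also on lane 6, it was 2.65 to 2.96. For oligodendrocyte lineage markers these values were 4.97, 3.92 to 4.16 and 3.67 to 3.99. The difference of Acta2 between arms was 0.62 ± 0.14, a call lost under 14 of 24 alternatives. Untreated cells had 6 microglia markers higher and none lower (median 0.31), 5 oligodendrocyte lineage markers higher and 2 lower (median 0.84), 8 neuron markers higher and 1 lower (median 0.46), and 4 vascular and meningeal markers higher and 4 lower (median 0.05). In the test of the difference between arms 1 of these markers, Acta2, was called. The untreated rise in microglia, oligodendrocyte lineage and neuron markers was largest in 24 h control replicates 2 and 4. Their mean log2 CPM for microglia markers was 2.96 and 3.2, against 2.44 and 2.24 in replicates 1 and 3. For oligodendrocyte lineage markers these values were 5.76 and 5.92 against 4.76 and 4.56, and for neuron markers 3.73 and 3.67 against 3.23 and 3.25. Untreated 6 h libraries reached at most 2.501, 4.597 and 3.24 for these lists. The listed markers below the filter on low counts held, over all 7 libraries together, 12 counts of Mog, 31 of Mag and 10 of Mobp for myelin, 42 of Slc17a7 and 13 of Slc17a6 for glutamatergic neurons, and 30 of Pecam1 and 19 of Cldn5 for endothelium. Others were well above that. Cnp, a myelin enzyme gene that precursors also express, stood at 265, 229 and 218 CPM at 24 h and 137, 150.3, 138 and 140.1 CPM at 6 h and changed by 0.75 ± 0.09. Elavl4, a neuronal RNA-binding protein gene, stood at 16 to 20.4 CPM at 24 h and 20.8 to 25.1 CPM at 6 h. Its change of −0.31 ± 0.14 was not called (adjusted p = 0.0592), and in untreated cells Elavl4 rose (0.46 ± 0.13, adjusted p = 0.00584). Gad1, the enzyme gene of GABA synthesis, stood at 3.9 to 4.88 CPM at 24 h and 5.42 to 8.87 CPM at 6 h. The part of these cells in the changes described was not tested.

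Glycolysis and hypoxia genes were mostly lower at 24 h, 13 lower and 4 higher of 22 (median −0.26) and 13 lower and 3 higher of 18 (median −0.33), with 15 and 13 lower in untreated cells. Hk2, the inducible hexokinase gene (ENSMUSG00000000628, GRCm38 chromosome 6, 82725025 to 82774454), stood at 30.6, 33.4 and 32.9 CPM at 24 h and 114, 94.2, 102 and 122 CPM at 6 h and changed by −1.74 ± 0.09 log2 (SE, adjusted p = 2.9e-13). The glucose transporter gene Slc2a1 changed by −0.97 ± 0.05. Vegfa, the vascular growth factor gene, stood at 44.5, 44.6 and 40.4 CPM at 24 h and 139.7, 113, 141 and 186 CPM at 6 h and changed by −1.75 ± 0.11 with T3 and −1.16 ± 0.10 without, a difference (−0.59 ± 0.14) that was called here and lost under 15 of 24 alternatives. Of the hypoxia genes 6 were called lower and 1 higher with a lane term. Of 25 targets of ATF4, the factor of amino acid shortage, 14 were lower and 5 higher (median −0.28, 11 and 2 with a lane term). The stress gene Nupr1 stood at 4.09, 4.1 and 3.54 CPM at 24 h and 23.2, 23.3, 20.5 and 24.4 CPM at 6 h and changed by −2.55 ± 0.15, and the folate enzyme gene Mthfd2 by −1.58 ± 0.12.

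Of 25 cholesterol synthesis genes 12 were lower and 2 higher (median −0.25). Cyp51, lanosterol demethylase, stood at 95.3, 87 and 81.7 CPM at 24 h and 188, 178, 191 and 193 CPM at 6 h and changed by −1.09 ± 0.09. Scd1, the desaturase gene that makes oleate, changed by −1.09 ± 0.09. Both were also lower in untreated cells, at −1.03 ± 0.08 and −1.11 ± 0.08. Ribosome biogenesis genes were lower in 15 of 27 cases and higher in 1 (10 and 0 with a lane term), with the nucleolar gene Gnl3 at −1.05 ± 0.08.

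Nuclear genes of the respiratory chain, which encode most subunits of complexes I to V, were called higher in 30 of 51 cases and lower in none (median 0.30), whereas untreated cells had 1 higher and 11 lower (median −0.12). In the difference 1 member was called. This result depended on the outlying libraries. Without 24 h T3 replicate 1 the count was 9 higher, without 6 h T3 replicate 2 it was 41, and without both it was 21. It was 44 without 24 h T3 replicate 3, with a median of 0.40. With a lane term, which also leaves out the level of that library, it was 19, with a median of 0.46. Once the trend over gene length and GC content was taken out it was 16 higher and 1 lower. The mean log2 CPM of the list was 7.24 in 24 h T3 replicate 1 against 6.74 and 6.68 in replicates 2 and 3, and 6.77 in 6 h T3 replicate 2 against 6.45 to 6.58 in the other three. In 24 h T3 replicate 1, alignments that were not unique made up 42.3% of all lines' counts, the highest share of the 7 libraries. The untreated arm also had a library that stood apart, 6 h replicate 4, with 42.1% of such alignments. Its list mean was 6.86, against 6.53 to 6.71 in the other untreated 6 h libraries and 6.53 to 6.62 in those at 24 h. The untreated counts without that library are not given here. Sdha, a complex II subunit gene, was among the members with an even step, at 494, 479.7 and 468 CPM at 24 h and 412, 418, 422 and 409 CPM at 6 h, a change of 0.21 ± 0.04 (0.13 once the trend over length and GC content was taken out). Of 7 tested mitochondrially encoded subunits 1 was higher and 2 were lower, and none was called with a lane term.

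Matrix genes and secreted signals changed in part. Of 42 collagens, laminins and crosslinking enzymes 21 were lower and 5 higher (median −0.34), and 6 and 6 with a lane term. Loxl2, a collagen crosslinking enzyme gene, was among the higher ones. It stood at 88.9, 101 and 92 CPM at 24 h and 47.4, 46.9, 48.3 and 52 CPM at 6 h and changed by 0.95 ± 0.08 with T3 and 0.30 ± 0.08 without, a called difference of 0.64 ± 0.12. Of 27 ADAMTS, MMP and TIMP genes 10 were higher and 10 lower (7 and 5 with a lane term), with Mmp14, a membrane-bound collagenase gene, at −0.76 ± 0.05. Among 33 growth factor genes 15 were lower and 7 higher. The binding protein genes of insulin-like growth factors Igfbp3 and Igfbp5 were the most abundant of those named. Igfbp3 stood at 489.7, 459 and 403 CPM at 24 h and 1373, 1386, 1347 and 1364 CPM at 6 h and changed by −1.60 ± 0.13, and Igfbp5 changed by −1.01 ± 0.08. Of 23 Notch pathway genes 10 were lower and 3 higher (5 and 1 with a lane term), with the ligand gene Jag1 at −1.36 ± 0.12, and of 33 Wnt pathway genes 9 were lower and 8 higher (8 and 5 with a lane term), with the receptor gene Fzd7 at −1.24 ± 0.09 and the secreted antagonist gene Sfrp5 at 2.44 ± 0.24.

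Of 24 clock genes, which keep daily time by feedback on transcription, 14 were lower and 6 higher (median −0.27), and 14 and 5 in untreated cells. Cry1, a repressor of the clock, stood at 33.1, 34.9 and 34.2 CPM at 24 h and 85.4, 83.4, 79.6 and 87.9 CPM at 6 h and changed by −1.30 ± 0.07 log2 (SE, adjusted p = 7.3e-13). Per3, another repressor gene, stood at 39.1, 57 and 59.8 CPM at 24 h and 21.8, 19.2, 22 and 22.4 CPM at 6 h, lowest at 24 h in replicate 1 and still above all 6 h libraries, and changed by 1.29 ± 0.12. The repressor genes Bhlhe40 and Bhlhe41 changed by −0.68 ± 0.06 and −0.76 ± 0.06. No label gives the clock time of harvest.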

How the data were processed

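RNA of 23 libraries was measured as single reads of 50 nt, from 200 ng of RNA and a kit that marks no strand, per the labels' protocols. The deposited files hold raw counts of reads per Ensembl gene, used as deposited. Per the submitters' processing notes the tools were bcl2fastq, FastQC, Bowtie, TopHat, HTSeq and edgeR, on GRCm38, with versions, counting mode and annotation release not given in the sources used here. Reads without a feature (3.75 to 5.58% of all lines' counts in the 7 libraries) and alignments that were not unique (36.2 to 42.3%) name no gene and stayed out of library sizes.

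Libraries were grouped by title. GENCODE M21 gave symbols for 36429 of 38293 identifiers. With edgeR 4.0.16 in R 4.3.3, filterByExpr kept 16087 genes and TMM scaled library sizes. All 23 libraries entered a robust quasi-likelihood fit of 6 group means (17 residual degrees of freedom, biological coefficient of variation 8.57%). The script was tested on simulated data. CPM were computed here from the deposited counts. The standard error of a log2 change is its size divided by the square root of F. Promoter windows came from RefSeq's table.

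The comparison, the 46 gene lists and their members were chosen with earlier results of these data known. Genes were named by rule. It took, per direction, the 15 protein-coding genes with the largest change that were called, averaged 5 CPM or more and had no overlap, and the 8 with the largest called difference between arms. It added up to 4 per list by smallest adjusted p, and Hr, Klf9, Dio3, Dio2 and Thrb. Of 210 such genes, 3 predicted ones were counted and not named, and not all are printed. Foxj1, Gfap, Aldh1l1, Kif11 and Ckap2l, and the marker genes given by summed counts, are outside the rule.

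Alternatives were DESeq2 1.42.0, RLE factors, no filter, only the compared libraries, lane as a covariate, a removed trend over gene length and GC content, a replicate block, each library left out and, added after the data were seen, both outlying libraries left out.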

Additional observations from a re-analysis of the deposited data

Results flagged for a closer look

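Among the genes printed, the change from 6 h to 24 h differed between T3-treated and untreated cells by edgeR's test of the difference (adjusted p under 0.05) for 20. Positive log2 differences were 2.95 for Aldh1a7, 2.70 for Aldh1a1, 1.90 for Adamts17, 1.90 for Crabp1, 1.53 for Cox7a1, 1.53 for Pla2g5, 1.42 for Wnt4, 0.64 for Loxl2, 0.62 for Acta2, 0.58 for Slco1a4 and 0.42 for Acsbg1. Negative ones were −1.34 for March4, −1.33 for Nptx1, −1.04 for Galnt15, −0.90 for Tmem132c, −0.80 for Kitl, −0.71 for Ptx3, −0.63 for Met, −0.59 for Vegfa and −0.53 for Hr. Of these genes, Acta2, Vegfa, Met, Hr and Slco1a4 lost the call under at least 1 of 24 alternatives.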

How the results depend on the processing

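The count of genes called in the T3 comparison (9253) was 5387 with lane as a covariate and lay between 7550 and 9744 under the other alternatives, with 8616 to 9183 when 1 T3 library was left out. The untreated count (9097) was 4406 with lane and 8391 to 8762 when 1 library was left out. The count for the difference between arms (136) was 365 with DESeq2, 530 with lane, 318 with gene length and GC content accounted for, 67 with only the compared libraries, and 70 to 348 when 1 library was left out. It was 348 without 24 h T3 replicate 3, 249 without 24 h control replicate 3, 70 and 74 without 24 h control replicates 2 and 4, 79, 84 and 75 without 6 h T3 replicates 1, 3 and 4, and 81 and 74 without 6 h control replicates 1 and 2. A block by replicate number gave 9341, 9153 and 124 calls in the 3 comparisons, and a block by the letter in the sample descriptions 9301, 9141 and 217. Deviations of same-numbered T3 libraries from their group means correlated at −0.40, −0.45 and 0.002, and those of the same letter at −0.40, 0.02 and 0.30. The largest correlation, 0.58, was between 24 h replicate 1 and 6 h replicate 2, the outlying libraries. As these libraries stood apart from their groups, the correlations can neither show nor exclude pairing by number or letter. With a lane term the change of Hr reversed to −0.014, and the calls of Dio2, Dio3 and Thrb were lost. The block by letter also ended the call of Hr.

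Small counts of list members moved by over 1.5 times when 1 T3 library was left out. Without 24 h replicate 1, the counts called higher were 2 for ATF4 targets (from 5), 1 for immediate early genes (from 2), 0 for heat shock genes (from 3), 2 for cyclin D genes and inhibitors (from 1), 2 for neuron markers (from 0) and 2 for mitochondrially encoded subunits (from 1), and 4 vascular markers were lower (from 2). Without 24 h replicate 2, those called higher were 5 for glutamate, potassium and water genes (from 8), 3 for replication genes (from 1), 3 for p53 targets (from 1), 2 for endoplasmic reticulum chaperones (from 1), 2 for synapse genes (from 4) and 1 for cholesterol genes (from 2). Without 24 h replicate 3 they were 6 for autophagy genes (from 3), 6 for aminoacyl-tRNA synthetases (from 3), 3 for STAT signalling genes (from 5), 3 for cyclin D genes and inhibitors, 2 for replication genes, 3 for p53 targets, 2 for endoplasmic reticulum chaperones and 1 for cholesterol genes. Without 6 h replicate 1 they were 3 for ATF4 targets, 3 for replication genes and 2 for neuron markers, and without 6 h replicate 2 they were 5 for glutamate, potassium and water genes, 5 for autophagy genes and 2 for p53 targets. Microglia markers called lower (2) were 0 without 6 h replicate 1, and 1 without 6 h replicate 4 or any 24 h replicate. Without both outlying libraries 3 ATF4 targets, 3 BMP and Id genes (from 6), 2 cyclin D genes and inhibitors, 0 heat shock genes, 1 immediate early gene, 1 neuron marker, 1 ribosomal protein gene (from 4) and 2 mitochondrially encoded subunits were higher, and 4 vascular markers and 1 ribosomal protein gene (from 0) lower. The causes were not tested. At low counts, as for Tnf, counting error limits the precision.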

Other observations

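Of 840 tested genes annotated as noncoding, 381 were called higher (45.4%) and 31 lower at 24 h, with a median log2 change of 0.59. Among the 840, 333 are annotated as antisense, of which 140 were called higher. As the kit marked no strand, their reads cannot be told from those of a gene that overlaps on the other strand. Untreated cells gave 376 higher and 38 lower. The summed level of noncoding genes was 4909 to 5360.4 CPM at 24 h and 3746 to 4059.9 CPM at 6 h with T3, and 4384 to 4844 CPM in the 8 libraries with CHX at 6 h. These sums were scaled to the gene counts of each library without the adjustment of library sizes described above. The counts with a lane term were 164 higher and 18 lower. Of the 1375 genes at least 2-fold higher, 448 had a mean under 1 CPM, against 78 of the 494 at least 2-fold lower.

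Of 20 p53 target genes 11 were lower and 1 was higher with T3 (median −0.26, 5 and 3 with a lane term). Zmat3, which encodes an RNA-binding protein that p53 induces, stood at 89.4, 98.2 and 97 CPM at 24 h and 186, 142, 172 and 171 CPM at 6 h and changed by −0.82 ± 0.08. Sesn1, a sestrin gene that p53 and FOXO factors induce, was the member that rose, by 0.72 ± 0.06. Of 26 autophagy and lysosome genes 14 were lower and 3 higher (median −0.20, 8 and 3 with a lane term), with the autophagy receptor gene Sqstm1 at −0.65 ± 0.07 and the kinase gene Ulk1 at −0.59 ± 0.07. Of 25 interferon response genes 11 were higher and 3 lower (median 0.28), and 4 and 4 with a lane term. Ifit2, an antiviral gene, stood at 119.9, 145 and 147 CPM at 24 h and 86.5, 79.7, 85.4 and 89.1 CPM at 6 h and changed by 0.69 ± 0.08, and the interferon regulatory factor gene Irf1 changed by −0.88 ± 0.07.

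Of 43 axon guidance genes 12 were higher and 18 lower (median −0.10, 7 and 10 with a lane term). The semaphorin receptor gene Nrp1 changed by −1.06 ± 0.09, the ephrin receptor gene Ephb1 by 0.90 ± 0.07 and the semaphorin gene Sema3b by 0.74 ± 0.06. Of 20 genes of STAT signalling 11 were lower and 5 higher (10 and 2 with a lane term), with Stat3, the factor downstream of gp130 cytokines, at 215, 223 and 238 CPM at 24 h and 426, 409.7, 415 and 424 CPM at 6 h, a change of −0.89 ± 0.07. Of 20 aminoacyl-tRNA synthetase genes 9 were lower and 3 higher. Dars, the aspartate enzyme gene, stood at 193, 189.7 and 186 CPM at 24 h and 90.3, 93.9, 92.3 and 98 CPM at 6 h and rose by 1.02 ± 0.05, while the isoleucine enzyme gene Iars changed by −0.65 ± 0.07.

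Of 20 endoplasmic reticulum chaperone genes 11 were lower and 1 was higher with T3 (median −0.20, 7 and 0 with a lane term), and 16 were lower and 1 higher in untreated cells. Canx, the calnexin gene, stood at 564, 615 and 636 CPM at 24 h and 858, 802, 840.3 and 862 CPM at 6 h and changed by −0.47 ± 0.05, and Dnajb9, a co-chaperone gene of the unfolded protein response, by −0.71 ± 0.08. Of 23 genes of secreted factors and membrane proteins that act on synapses 15 were lower and 4 higher (median −0.43, 10 and 0 with a lane term), the phagocytic receptor gene Mertk among them at −1.14 ± 0.12. Of 20 BMP and Id genes 12 were lower and 6 higher (6 and 3 with a lane term), with the receptor gene Bmpr1a at −0.53 ± 0.07 and Id4, an inhibitor of helix-loop-helix factors, at 0.52 ± 0.06. Of 13 Kruppel-like factor genes 8 were lower and 2 higher (5 and 2 with a lane term), with Klf6 at −0.76 ± 0.07. Of 21 actin and SRF target genes 9 were higher and 3 lower (9 and 2 with a lane term). Myl9, a myosin light chain gene of contractile cells, stood at 373, 288 and 255 CPM at 24 h and 171, 213, 186 and 164 CPM at 6 h, and changed by 0.73 ± 0.10 log2 (SE, adjusted p = 6.6e-07), while the transgelin gene Tagln2 changed by −1.08 ± 0.08.

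Of 21 FOXO and growth factor withdrawal genes 9 were lower and 3 higher (6 and 3 with a lane term), with the cyclin G2 gene Ccng2 at −0.75 ± 0.05. Of 19 fatty acid synthesis genes 7 were lower and 5 higher, the citrate lyase gene Acly at −0.51 ± 0.05. Of 22 heat shock genes 8 were lower and 3 higher (1 and 3 with a lane term), and the count higher was 0 without 24 h T3 replicate 1. Of 54 cytosolic ribosomal protein genes, which have many processed copies that can share reads, 4 were higher and none lower (median 0.19), and 1 and 0 with a lane term. The count higher was 0 without 24 h T3 replicate 1, 21 without 24 h T3 replicate 3, and 1 to 12 without each of the others.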
